A study of Mus musculus with 4 samples.

Results

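Klk1, Klk1b8, Klk1b9, Klk1b11, Klk1b16, Klk1b21, Klk1b22, Klk1b24, Klk1b26 and Klk1b27 are 10 glandular kallikrein genes of a tandem cluster on mouse chromosome 7, and they are 10 of the 55450 genes in the feature tables. They were taken by symbol from a fixed list, and the list was chosen on measured values of these same libraries, with the difference between the diets in view. Their diet ratios are therefore given as a description, and the counts of members called by the fit of all genes support nothing. The samples were 4 droplet single-cell libraries of dissociated mouse testis (10x Chromium 3′ chemistry), of which 2 came from animals on the high-fat diet (labelled HFD, here HFD 1 and HFD 2) and 2 from animals on the normal diet (ND 1 and ND 2). The strain, genotype, age, length of feeding and number of mice per library are not given in the sources used here, so any p-value measures only the spread between these libraries, which may be technical.

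Glandular kallikreins are secreted serine proteases. Tissue kallikrein, the product of Klk1, cuts kininogen to release kinins, short peptides that act on bradykinin receptors to widen vessels. In mice the family has expanded into many close copies, among them enzymes first described in the salivary gland as processing enzymes for growth factors and for renin. Klk1b21, Klk1b24 and Klk1b27 are known from earlier work as proteases of Leydig cells, the testosterone-producing cells between the seminiferous tubules. Klk1b22 and Klk1b9 encode proteins known for binding epidermal growth factor, Klk1b26 encodes a prorenin-converting enzyme, and Klk1b16 is known as gamma-renin.

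The cluster is shown first by the sequence just upstream of the members' start sites, because the genes that follow divide into groups by expression although these sequences are close to each other. RefSeq (GRCm38.p6) has a promoter for 10 of the 10 members. Each line gives the 60 bases that end at the last base before the RefSeq start site, all on the plus strand of chromosome 7, with the letters TTTAAA in capitals. RefSeq starts can differ from the GENCODE M21 starts used further below. The windows of Klk1b26 and Klk1b16 lie inside the GENCODE genes, which start at chr7:44012168 and chr7:44136767. The GENCODE start of Klk1b21, chr7:44102328, lies some way behind its window. The first 5 are the genes that were highest in Leydig-like cells, the next 3 those that were highest in spermatid-like cells, and the last is Klk1.
Klk1b27, chr7:44052230-44052289: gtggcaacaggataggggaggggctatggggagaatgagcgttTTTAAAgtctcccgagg
Klk1b21, chr7:44102232-44102291: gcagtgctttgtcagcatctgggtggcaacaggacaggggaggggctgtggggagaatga
Klk1b22, chr7:44112613-44112672: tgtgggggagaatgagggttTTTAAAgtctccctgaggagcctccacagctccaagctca
Klk1b16, chr7:44137230-44137289: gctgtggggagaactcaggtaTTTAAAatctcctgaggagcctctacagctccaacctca
Klk1b24, chr7:44188176-44188235: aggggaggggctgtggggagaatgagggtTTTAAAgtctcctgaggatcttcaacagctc
Klk1b8, chr7:43950606-43950665: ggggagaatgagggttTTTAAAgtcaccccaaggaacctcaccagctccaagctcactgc
Klk1b9, chr7:43976001-43976060: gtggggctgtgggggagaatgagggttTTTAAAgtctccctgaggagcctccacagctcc
Klk1b26, chr7:44012618-44012677: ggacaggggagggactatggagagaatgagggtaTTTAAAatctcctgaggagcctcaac
Klk1, chr7:44225300-44225359: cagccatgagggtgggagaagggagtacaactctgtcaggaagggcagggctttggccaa

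In the 300 bases from 250 before to 50 after the start, TTTAAA lies in 9 of the 10 members and in 13.2% of 32851 promoters of that length, a motif that was chosen after the sequences had been seen and that reads the same on both strands. In Klk1b21 it begins 5 bases after the RefSeq start and so falls outside the printed window. Klk1 is the member without it. CAAGGTCA, the site of the steroidogenic factor NR5A1, was found on either strand in Klk1b21 and Klk1, against 1.56% of all promoters. AGAACA, the half-site of the androgen receptor, was found in Klk1b24 and in 19.0% of all promoters, and TGACGTCA, the cAMP response element, in 0 of the 10 members and in 1.79% of all. These are matches of letters only.

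Promoters within the Leydig-enriched group were about as close to each other as to those of the spermatid-enriched group. The median identity was 82.8% over 10 pairs within the first group (79.2% to 97.7%), 84.9% over 3 pairs within the second and 84.0% over the 15 pairs between them. The closest pair was Klk1b21 and Klk1b24, 97.7% identical over 265 aligned bases. Transcripts were as close, with a median identity of 87.2% within the Leydig-enriched group and 86.5% between the groups. Over their last 300 bases the median was 88.1% within the Leydig-enriched group and 82.9% between the groups. Within the spermatid-enriched group it was 78.9%. Such closeness limits how UMIs (unique molecular identifiers, 1 per captured RNA molecule) can be assigned to single genes. In the last 300 bases of the GENCODE M21 transcript, 65.7% of the 50-base words of Klk1b21, 72.5% of those of Klk1b24 and 74.9% of those of Klk1b22 occurred in no other of the 14 family transcripts compared. The share was at least 90.4% in the other 7 members. Klk1b8 and Klk1b9 also overlap the antisense gene Gm44756, and Klk1 overlaps the pseudogene Gm10109. Whether strand was used in counting is not given in the sources used here.

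The libraries held 13561 to 15290 barcodes and 143748262 to 154221188 UMIs each, with a median of 5713.5 to 6167 UMIs per barcode. After filtering and removal of called doublets, 13086 to 14467 cells per library were clustered together. Clusters were named from marker lists, and 47.2% to 53.7% of the cells of a library fell in a named class. Pairs of libraries shared 42 to 65 barcodes. Levels are UMIs per 1000000 UMIs of the same class and library (CPM); since a 3′ assay counts each molecule once, they are not scaled by length.

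Along the chromosome, the genes that were high in Leydig-like cells formed a block with spermatid-enriched genes on both sides. Klk1b27, Klk1b21, Klk1b22, Klk1b16 and Klk1b24 follow each other from chr7:44052290 to chr7:44192455 with only pseudogenes of the family between them, and each of the 5 was higher in Leydig-like cells than in any other class of the same library in the ND mice. Klk1b8 (chr7:43950664-43954941), Klk1b9 (chr7:43976061-43980376) and Klk1b26 (chr7:44012168-44016968) lie before them, and Klk1 closes the cluster behind them at chr7:44225360-44229618. Coordinates are those of GENCODE M21 on GRCm38, and all 10 genes lie on the plus strand. In ND elongating-spermatid-like cells Klk1b8 was at 434 ± 16.1 CPM (SD, n = 2 libraries) and Klk1b24 at 1.17 ± 0.0799 CPM. In ND Leydig-like cells the order was the other way round, with Klk1b24 at 512 ± 16.3 CPM and Klk1b8 at 29.1 ± 0.941 CPM.

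**Figure D1:**
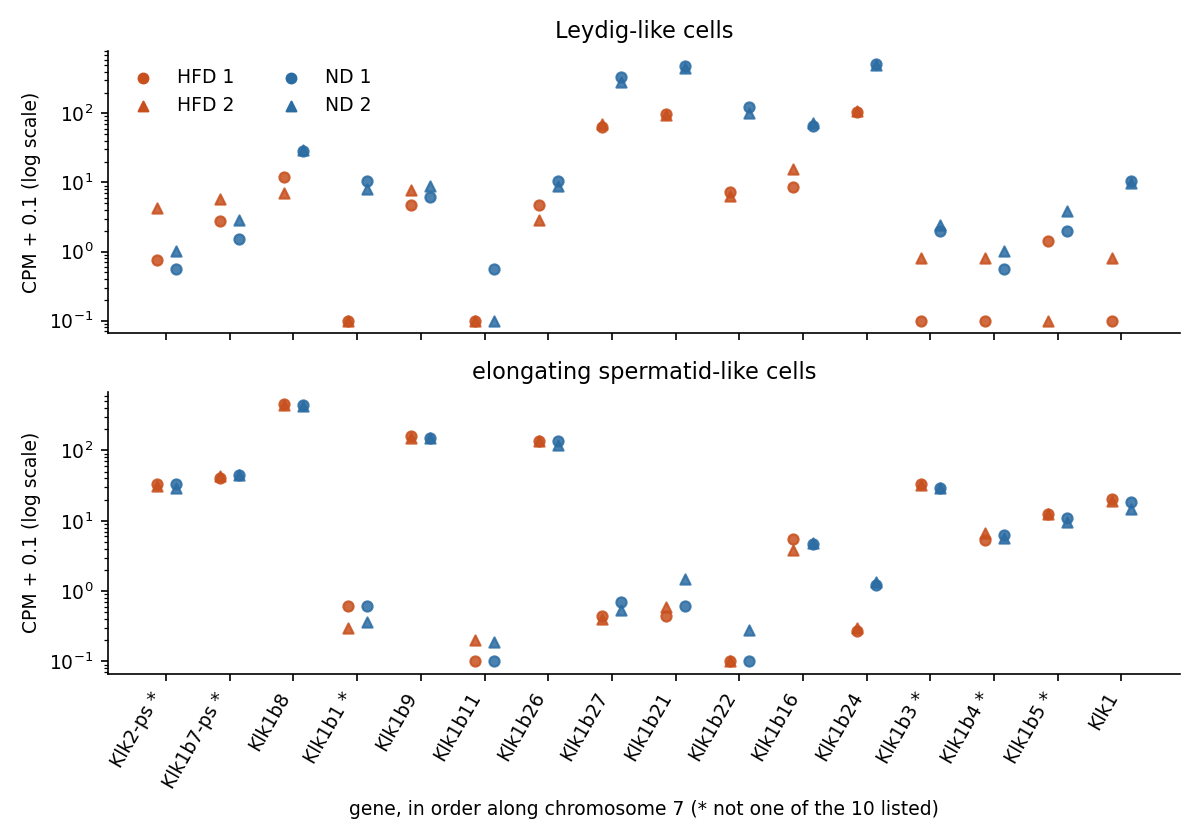
Levels of 16 glandular kallikrein genes in order along chromosome 7, in Leydig-like cells (top) and elongating-spermatid-like cells (bottom), as CPM plus 0.1 on a log scale, 1 point per library. The 5 neighbouring genes Klk1b27 to Klk1b24 are high in Leydig-like cells and the HFD points lie below the ND points, while Klk1b8, Klk1b9 and Klk1b26 are high in elongating-spermatid-like cells.

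Of the kept UMIs, 92.8% of those of Klk1b27, 90.5% of those of Klk1b22, 90.2% of those of Klk1b21 and 88.7% of those of Klk1b24 lay in Leydig-like cells, which were 1177 cells of all 4 libraries. For Klk1b16 it was 42.4%, and 26.9% lay in elongating-spermatid-like cells. These shares pool the diets, and for Klk1b16 their order differed between them. Its share in Leydig-like cells was 13.7% in HFD and 56.4% in ND. In elongating-spermatid-like cells it was 39.6% in HFD and 20.7% in ND. Of the UMIs of Klk1b8, 55.8% lay in elongating-spermatid-like cells and 24.9% in a cluster that scored for both round and elongating spermatid markers (the round-to-elongating cluster). The values for Klk1b26 were 55.9% and 24.3%, for Klk1b9 52.7% and 22.8%, and for Klk1 53.3% and 19.6%. Klk1b11 had 5 UMIs in all kept cells and is not described further.

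Leydig-like cells were checked first. The class was 1 cluster with 210 and 234 cells in the HFD libraries and 367 and 366 cells in the ND libraries, and all 7 Leydig markers were detected in each library. Their summed level was 16340 and 16410 CPM in HFD and 20960 and 17490 CPM in ND. The median depth was 7103 and 6043 UMIs per cell in HFD and 5899 and 5869 in ND. Markers of other types were present in these sums, and the 10 elongating spermatid markers together reached 6161 and 4810 CPM in HFD and 5147 and 6097 CPM in ND, ranges that overlap. Macrophage markers summed to 171 and 309 CPM in HFD and 242 and 221 CPM in ND. Of the 12 marker lists of other cell types, 7 had summed levels that did not overlap between the diets: 4 lower in HFD (fibroblast, Sertoli, spermatogonia and peritubular myoid) and 3 higher in HFD (pachytene and later spermatocyte, endothelial and erythroid). The 8 fibroblast markers summed to 119 and 129 CPM in HFD and 176 and 203 CPM in ND, and the 11 markers of pachytene and later spermatocytes to 975 and 898 CPM in HFD and 691 and 751 CPM in ND. The part of RNA from other cells in the results was not tested. Klk1b8, Klk1b21, Klk1b22, Klk1b24 and Klk1b27 were among the genes used for clustering.

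Klk1b24, the most abundant member in Leydig-like cells, had 159 and 156 UMIs in the HFD libraries and 1124 and 1077 UMIs in the ND libraries. Its level was 104 and 109 CPM in HFD and 524 and 501 CPM in ND. Both HFD libraries lay below both ND libraries, and the ND mean was 4.80 times the HFD mean (log2 ratio -2.30, SE 0.10, edgeR).

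Klk1b21, whose product is known to cut fibronectin and an IGF-binding protein in vitro, was at 97.8 and 94.96 CPM in HFD and 479 and 449 CPM in ND, a log2 ratio of -2.30 (SE 0.11). Klk1b27 was at 62.4 and 69.1 CPM in HFD and 335 and 281 CPM in ND, with a log2 ratio of -2.26 (SE 0.12). These 3 genes had nearly the same ratio, though the division of UMIs among such close copies was not tested. The libraries of each did not overlap between the diets. For all members such non-overlap is a description only, since they were chosen on this contrast. The share of all genes without overlap was not counted.

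Klk1b22, the gene of an epidermal growth factor binding protein, had the lowest ratio of the 5. It had 11 and 9 UMIs in HFD and 262 and 220 UMIs in ND, or 7.22 and 6.28 CPM against 122 and 102 CPM. The ND mean was 16.6 times the HFD mean (log2 ratio -4.07, SE 0.22). Klk1b16, gamma-renin, was at 8.53 and 15.4 CPM in HFD and 65.2 and 71.6 CPM in ND (log2 ratio -2.55, SE 0.22). In both genes every HFD library was below every ND library.

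Of all UMIs of the 10 genes in Leydig-like cells, Klk1b24 made up 34.7% in HFD and 33.7% in ND, Klk1b21 31.4% and 30.5%, and Klk1b27 21.4% and 20.3%. Klk1b22 made up 2.21% in HFD and 7.38% in ND. The 3 leading genes thus made up nearly the same proportions in both diets while the sum was lower in HFD, and the share of Klk1b22 was lower within that sum. Over the last 300 transcript bases, pairs of the 3 leading genes were 91.6% to 94.7% identical. The part of shared assignment of UMIs in their like proportions was not tested.

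**Figure D2:**
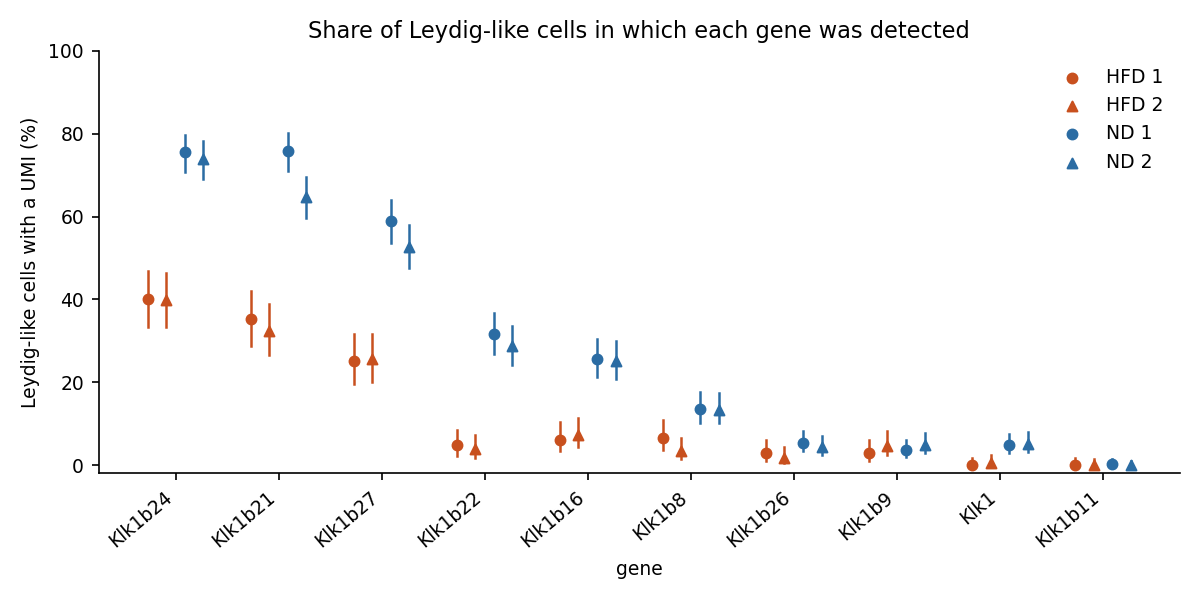
Share of Leydig-like cells with at least 1 UMI of each gene, 1 point per library with its exact 95% Clopper-Pearson interval (counting error only). For Klk1b24 the HFD libraries stand at 84 of 210 cells and 93 of 234 cells and the ND libraries 75.5% and 73.8%, and the intervals of the diets do not overlap for Klk1b24, Klk1b21, Klk1b27, Klk1b22 or Klk1b16.

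Both the share of cells with a UMI and the number of UMIs in those cells were lower in HFD. At such counts a lower mean per cell tends to lower both, so they are not separate results. Klk1b24 was detected in 84 of 210 and 93 of 234 Leydig-like cells in HFD (95% intervals 33.3% to 47.0% and 33.4% to 46.3%) and in 75.5% and 73.8% in ND (70.7% to 79.8% and 69.0% to 78.2%). A cell with a UMI of Klk1b24 held 1.89 and 1.68 UMIs on average in HFD and 4.06 and 3.99 in ND. Cells with at least 2000 UMIs were also thinned to 2000 UMIs, which left out 0 and 5 cells in HFD and 14 and 17 in ND. In the thinned cells the shares were 15.7% and 16.6% in HFD and 52.7% and 52.2% in ND. The order of the diets was thus the same at equal depth.

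Klk1b22 was detected in 4.76% and 3.85% of Leydig-like cells in HFD and in 31.6% and 28.7% in ND. For Klk1b16 the shares were 6.19% and 7.27% in HFD and 25.6% and 25.1% in ND. Cells in which none of the 5 genes was detected made up 33.8% and 38.9% of the class in HFD and 7.90% and 13.1% in ND. All 5 genes were detected together in 1 and 3 cells in HFD and in 44 and 31 cells in ND.

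Klk1b8 was less abundant in these cells, with 18 and 10 UMIs in the HFD libraries against 61 and 64 in the ND libraries, or 11.8 and 6.98 CPM against 28.4 and 29.8 CPM (log2 ratio -1.64, SE 0.28). With called doublets kept the ratio was -0.77. Klk1b8 is abundant in spermatids, so it was set against the elongating spermatid markers in the same sums. There were 1.92 and 1.45 UMIs of Klk1b8 per 1000 UMIs of those markers in HFD Leydig-like cells, 5.52 and 4.88 in ND Leydig-like cells, and 2.17 to 2.38 in elongating-spermatid-like cells over the 4 libraries. In round-spermatid-like cells there were 1.22 to 1.31. The ND Leydig-like cells held more Klk1b8 for these markers than any class of spermatid-like cells. The HFD Leydig-like cells lay between the round and the elongating class. In pachytene-like and later spermatocytes the value was 1.835 and 1.89 in HFD and 2.655 and 2.35 in ND. In early-spermatocyte-like cells it was 1.915 and 1.63 in HFD and 2.12 and 2.01 in ND. Elongating-spermatid-like cells went the other way, higher in HFD. The cause of these differences was not tested.

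Klk1b9 and Klk1b26 had few UMIs in Leydig-like cells in both diets. Klk1b9 was counted 7 and 11 times in HFD against 13 and 19 times in ND, at 4.595 and 7.68 CPM against 6.06 and 8.84 CPM, and its libraries overlapped (log2 ratio -0.32, SE 0.44). Klk1b26 was at 4.595 and 2.79 CPM in HFD and 10.3 and 8.84 CPM in ND (log2 ratio -1.37, SE 0.47). Per 1000 UMIs of elongating spermatid markers, Klk1b9 stood at 0.746 and 1.60 in HFD and 1.18 and 1.45 in ND Leydig-like cells, against 0.754 to 0.855 in elongating-spermatid-like cells. Klk1b26 stood at 0.746 and 0.581 in HFD and 1.99 and 1.45 in ND Leydig-like cells, against 0.618 to 0.730 in elongating-spermatid-like cells, and its libraries did not overlap between the diets. In pachytene-like and later spermatocytes Klk1b26 stood at 0.562 and 0.619 in HFD and 0.957 and 0.770 in ND. The cause was not tested.

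Klk1, tissue kallikrein, had 0 and 1 UMIs in HFD Leydig-like cells and 22 and 21 UMIs in ND. Per UMI of the class, the ND libraries together held 29.6 times as many as the HFD libraries, with an exact 95% interval of 5.03 to 1195 that covers counting error only. At 0 of 210 cells, the exact interval for the share of cells with a UMI in HFD 1 reaches 1.74%.

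For the 10 genes summed, a value that does not depend on how UMIs were divided among these 10, though it can on the division with other copies, the level was 301 and 313 CPM in HFD and 1580.0 and 1462 CPM in ND. The log2 ratio of the means was -2.31, against a pooled SD of 0.06 between libraries of a diet. Per cell there were 219 and 192 UMIs per 100 Leydig-like cells in HFD and 924 and 859 in ND.

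In the fit of all genes in Leydig-like cells, 9 of the 10 members passed the filter on low counts and edgeR called 7 lower in HFD at an adjusted p under 0.05. Of all 11635 genes tested, 2.15% were called lower and 1.99% higher. Since the members were chosen on this contrast, the count is given for its size only. The median log2 ratio was -2.30 over the 9 members tested and -0.01 over all genes tested. The 2 that were not called were Klk1b9 and Klk1b26. Klk1, one of the 7, passed the filter through its ND libraries only, and so did Klk1b26.

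**Figure D3:**
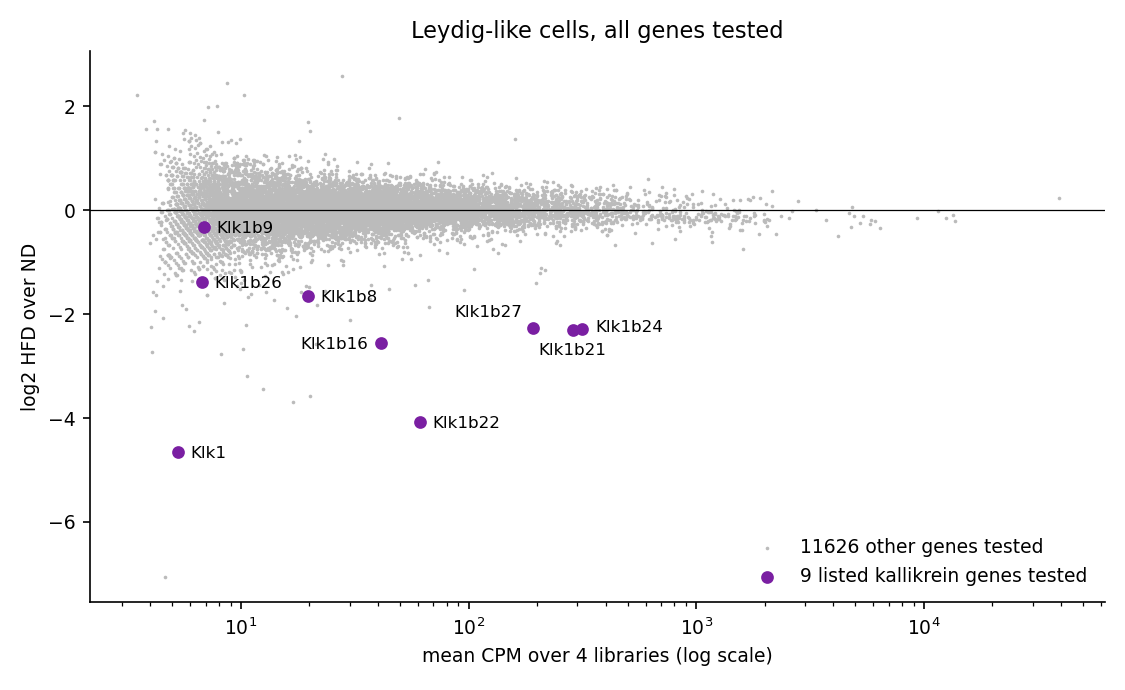
Log2 ratio of HFD over ND against the mean level (CPM, log scale) for the 11635 genes tested in Leydig-like cells, with the 9 listed kallikrein genes tested in purple and the other genes in grey. Klk1b24, Klk1b21 and Klk1b27 lie near -2.3 and Klk1b22 at -4.07, below the line at 0 that marks no difference.

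In elongating-spermatid-like cells (1723 and 1761 in HFD, 2073 and 1905 in ND) the order of the mean levels was Klk1b8, Klk1b9, Klk1b26, Klk1 and Klk1b16. Klk1b8 was at 453 and 439 CPM in HFD and 446 and 423 CPM in ND (log2 ratio -0.03, SE 0.05). Ratios with an SE come from the fit, whose TMM scaling differs from the CPM, so small ones can differ in sign from the printed levels, as here. The libraries of the diets overlapped. Klk1b8 was detected in 73.9% and 71.2% of these cells in HFD and in 69.5% and 70.1% in ND.

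Klk1b9 was at 163 and 151 CPM in HFD and 148 and 151 CPM in ND (log2 ratio 0.00, SE 0.06). Klk1b26 was at 137 and 135 CPM in HFD and 135 and 120 CPM in ND (log2 ratio 0.02, SE 0.06). Neighbours in this order, Klk1b9 and Klk1b26, did not overlap over the 4 libraries, since the lowest Klk1b9 level was above the highest Klk1b26 level.

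Klk1 was lower, at 20.2 and 19.2 CPM in HFD and 18.2 and 14.4 CPM in ND, and Klk1b16 was at 5.36 and 3.75 CPM in HFD and 4.62 and 4.72 CPM in ND. All 10 genes summed reached 779 and 749 CPM in HFD and 753 and 716 CPM in ND. The log2 ratio of that sum was 0.06, close to the pooled SD of 0.05 between libraries.

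In round-spermatid-like cells the same sum was far lower, at 39.7 and 36.5 CPM in HFD and 39.7 and 37.7 CPM in ND, a log2 ratio of -0.02. Klk1b8 was at 20.4 and 19.8 CPM in HFD and 21.2 and 19.3 CPM in ND. Its level differed between the clusters, which are listed here by class and mostly by rising Klk1b8 level, not by an independent order of stages. In the 3 round-spermatid-like clusters (numbers 17, 15 and 16) it was at 7.84, 10.9 and 53.7 CPM over all libraries, and in the round-to-elongating cluster at 269 CPM. In the elongating-spermatid-like clusters 20, 1 and 0 it was at 422, 509 and 612 CPM, and in clusters 2 and 6 at 259 and 129 CPM. In cluster 16, the round-to-elongating cluster and cluster 0, Klk1b9 was at 28.7, 90.7 and 220 CPM and Klk1b26 at 13.8, 78.3 and 163 CPM. The clusters were built from the same cells with Klk1b8 among the genes used, so these levels describe the clusters and were not tested.

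**Figure D4:**
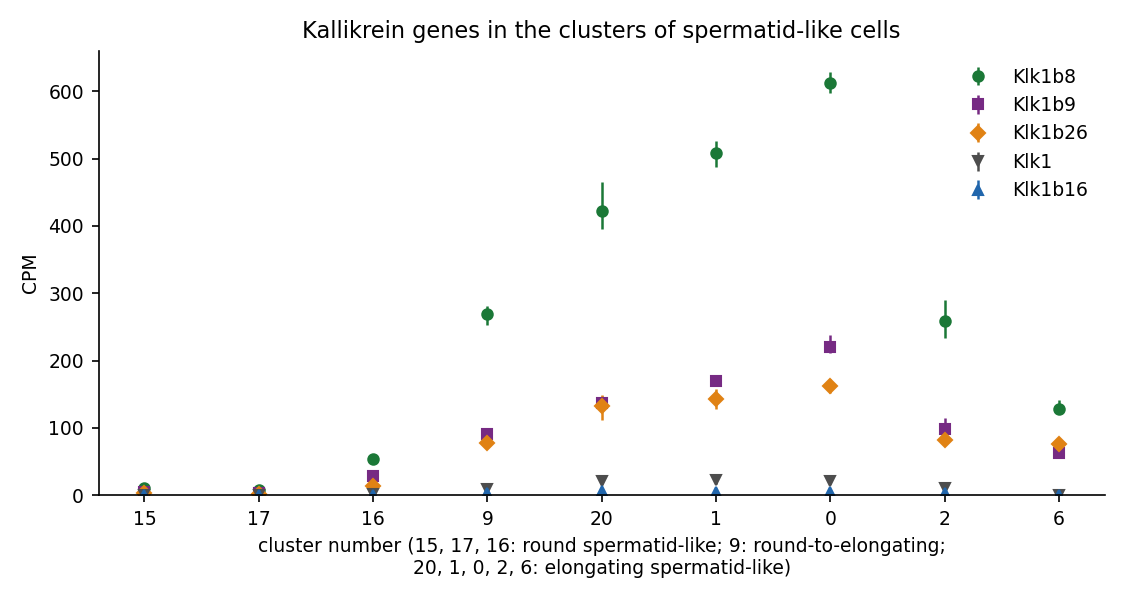
Levels (CPM, linear scale) of 5 kallikrein genes in the clusters of spermatid-like cells, over all 4 libraries, with bars from the lowest to the highest library. Klk1b8 stands at 7.84 CPM in cluster 17 and at 612 CPM in cluster 0, and Klk1b9 and Klk1b26 are highest in the same cluster.

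Klk1b24 and Klk1b21 had few UMIs in germ cells, and those few were also fewer in HFD. Klk1b24 had 5 and 1 UMIs in the round-spermatid-like cells of HFD and 33 and 36 in those of ND, or 0.179 and 0.0398 CPM against 0.943 and 1.00 CPM. Klk1b21 was counted 2 and 2 times in HFD against 21 and 25 times in ND. The 7 Leydig markers in the same cells summed to 13.8 and 12.9 CPM in HFD and 16.2 and 16.9 CPM in ND. Expressed per 1000 UMIs of Leydig markers, Klk1b24 stood at 58.3 and 59.5 in ND round-spermatid-like cells and at 25.0 and 28.6 in ND Leydig-like cells. In HFD it stood at 13.0 and 3.09 in round-spermatid-like cells, on 5 and 1 UMIs, and at 6.39 and 6.64 in Leydig-like cells, so the order of the classes differed between the HFD libraries. The part of free RNA in these counts was not tested.

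Of the members tested, edgeR called 2 of 7 lower in HFD in round-spermatid-like cells (Klk1b21 and Klk1b24), where 0.093% of 18285 genes were called lower. Nothing is read from these counts, since the members were chosen on the diet contrast. Both genes also passed the filter on low counts there through their ND libraries only. In elongating-spermatid-like cells edgeR called 1 of 6 (Klk1b24), where 4.61% of 13697 genes were called lower. Klk1b24 passed the filter there through its ND libraries only, so this call is no support either. Over the whole testis edgeR called 6 of 9, where 19.1% of 25471 genes were called lower, and the 6 were the 5 Leydig-enriched genes and Klk1b8. In sums over the whole testis, fewer Leydig cells and less RNA per cell cannot be told apart, and the libraries held fewer Leydig-like cells in HFD. With DESeq2 the count was 0 in round- and 0 in elongating-spermatid-like cells. Without ND 2 the count in round-spermatid-like cells was 0, and without either HFD library the count in elongating-spermatid-like cells was 0.

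**Figure D5:**
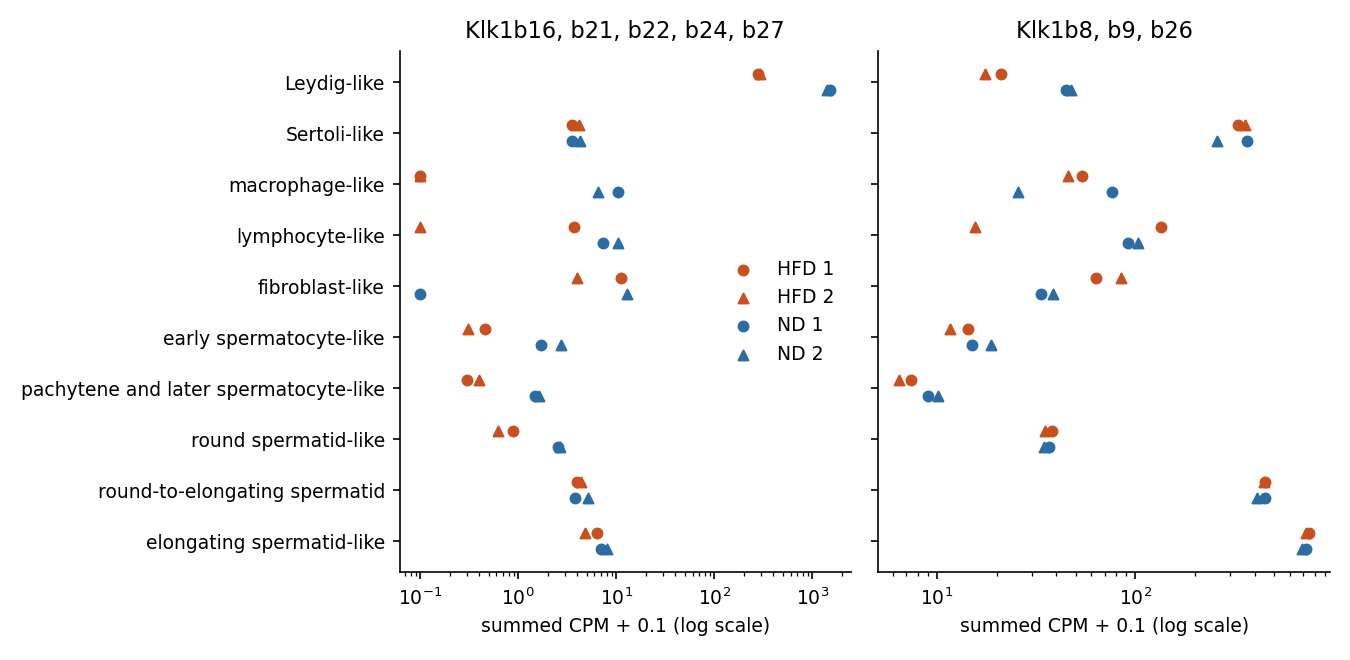
Summed levels of the 5 Leydig-enriched genes (left) and of the 3 spermatid-enriched genes (right) in each class, as CPM plus 0.1 on a log scale, 1 point per library. In Leydig-like cells the left sum is 280 and 295 CPM in HFD and 1525 and 1405 CPM in ND, and in elongating-spermatid-like cells the right sum is 694 to 752 CPM in all 4 libraries.

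Sertoli-like cells also held spermatid kallikreins. Klk1b8 was at 204 and 224 CPM in HFD and 222 and 158 CPM in ND. The elongating spermatid markers in the same cells summed to 78450 to 96180 CPM, and there were 2.01 to 2.45 UMIs of Klk1b8 per 1000 of their UMIs, next to the 2.17 to 2.38 in elongating-spermatid-like cells. In macrophage-like, lymphocyte-like and fibroblast-like cells the 3 spermatid-enriched genes summed to 15.5 to 135 CPM per library, on 4 to 37 UMIs each.

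Among the other kallikreins, Klk1b1 was also detected in Leydig-like cells of ND, although it lies between Klk1b8 and Klk1b9. It had 0 and 0 UMIs in HFD Leydig-like cells and 22 and 17 in ND, at least 8.94-fold lower in HFD with a floor of 3 UMIs over both HFD libraries. The exact 95% lower limit of that ratio, for counting error only, was 6.93. It passed the filter on low counts through its ND libraries only, so its call by edgeR is no support. Klk1b3, Klk1b4 and Klk1b5, which lie between Klk1b24 and Klk1, were at 29.1, 5.83 and 10.3 CPM in ND elongating-spermatid-like cells and at 32.8, 5.89 and 12.4 CPM in HFD, and in Leydig-like cells their means were 2.10, 0.698 and 2.79 CPM in ND and 0.349, 0.349 and 0.657 CPM in HFD, on few UMIs. Of the 12 kallikrein-related peptidases Klk4 to Klk15, 0 passed the filter in Leydig-like cells.

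Substrates and receptors were looked up in lists. Of 18 genes of the kallikrein-kinin system, 8 were tested in Leydig-like cells and edgeR called 0, with a median log2 ratio of -0.21. At an unadjusted p under 0.05 there were 3 (Ece1, Serping1 and Cpd, named after their values were seen), the first 2 lower and Cpd higher in HFD. Of all 11635 genes tested, 16.3% passed that unadjusted threshold. The kininogen genes were nearly absent, with 0 UMIs of Kng1 in each library and 5, 2, 1 and 1 UMIs of Kng2 in HFD 1, HFD 2, ND 1 and ND 2. Bdkrb1, the inducible kinin receptor, had 0 UMIs in each library, and Bdkrb2, the constitutive one, had 2 and 2 UMIs in the HFD libraries against 0 and 0 in the ND libraries. Ace, which degrades kinins, was at 41.4 and 39.1 CPM in HFD and 52.7 and 40.5 CPM in ND (log2 ratio -0.24, SE 0.18, edgeR adjusted p 0.546).

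Of 14 genes for proposed kallikrein substrates and their receptors, 8 were tested in Leydig-like cells. Of the 8, edgeR called 2 lower in HFD, where 2.15% of all 11635 genes tested were called lower. Nothing is read from this count, since the list was chosen with earlier results of these data known. Igfbp2, an IGF-binding protein, was at 102 and 88.0 CPM in HFD and 160 and 151 CPM in ND (log2 ratio -0.74, SE 0.12, edgeR adjusted p 2.49e-06). Igf1r, the IGF-1 receptor, was at 96.5 and 125 CPM in HFD and 169 and 176 CPM in ND (-0.67, SE 0.12, edgeR adjusted p 1.46e-05).

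Of 20 genes of steroid synthesis and its regulation, 19 were tested, with a median log2 ratio of -0.05 over the list. Of the 19, edgeR called 7 lower in HFD, where 2.15% of all 11635 genes tested were called lower. This list too was chosen with earlier results of these data known, so nothing is read from the count. Star, which carries cholesterol into the mitochondrion, was at 1162 and 1222 CPM in HFD and 2028 and 1871 CPM in ND (-0.74, SE 0.08, edgeR adjusted p 2.09e-12). The ratio was -0.32 for Cyp17a1, -0.31 for Hsd3b6, -0.38 for Fdx1, -0.57 for Por and -1.44 for Srd5a1, with edgeR adjusted p-values of 0.000389 to 0.00811. Each of these 6 ratios was closer to 0 than those of the 5 Leydig-enriched kallikreins. Nothing is read from that order, since the kallikreins were chosen on this contrast. All 7 Leydig markers that named the class are in this list. Cyp11a1, which starts steroid synthesis, was not called, at a ratio of -0.01 (SE 0.08), and neither was Lhcgr, the receptor of luteinising hormone, at -0.01 (SE 0.10). Of the list genes and neighbours called other than Klk1b1, Igfbp2 and Star were called under all alternatives that gave them an adjusted p. The number called, Klk1b1 included, was 12, against 4 at a clustering resolution of 2 and 6 with DESeq2.

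Of 109 genes within 500 kb of either end of the members, 16 passed the filter in Leydig-like cells, and their median log2 ratio was 0.00. Apart from Klk1b1, edgeR called 2, where 2.15% of all 11635 genes tested were called lower and 1.99% higher. The gene 2410002F23Rik was at 42.0 and 44.7 CPM in HFD and 77.8 and 76.7 CPM in ND (-0.87, SE 0.16, adjusted p 3.69e-05), and 1700028J19Rik was higher in HFD, at 355 and 302 CPM against 223 and 241 CPM (0.47, SE 0.09, adjusted p 0.0003).

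Genes with the most similar pattern were ranked by Pearson's r of log2(CPM + 1) over the 40 sums of 10 classes and 4 libraries, among 11551 genes. The points share libraries and depth, so r is a description only. For the 3 spermatid-enriched genes summed, the closest was Prm1 (r = 0.978), a protamine, followed by 1700015G11Rik, 1700027A15Rik, and Tnp2 and Tnp1, which encode transition proteins of the condensing nucleus. For the 5 Leydig-enriched genes summed, the closest was 9230104L09Rik (0.928), followed by Hao2, Tmem132a, Mt3 and Il17rb. For all 10 genes summed, the closest were Osgin1 (0.926), Nqo2, Gpi1, Cdk16 and D17Wsu92e.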

How the data were processed

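UMI counts per gene and barcode were deposited by the authors as 1 matrix per library, raw and not normalised, written by software version 3.0.2 per the file headers. The build is mm10 per the submitters' processing notes; the annotation and the use of strand in counting are not given in the sources used here. Barcodes with under 200 genes or over 20% mitochondrial UMIs were left out (13 to 42 per library), as were 457 to 888 doublets per library called by Scrublet in scanpy 1.11.5. Cells were clustered together (2000 variable genes, 30 components, 15 neighbours, Leiden resolution 1), and clusters were named from fixed marker lists. UMIs were summed per library and class and fitted with edgeR 4.0.16 (R 4.3.3; filterByExpr, TMM, quasi-likelihood test, Benjamini-Hochberg adjustment over all genes tested, threshold 0.05), with no covariate. DESeq2 1.42.0 was an alternative. The edgeR step was run on simulated data with a fixed dispersion, so that run is no support for the calls made here. Shares of cells have exact 95% Clopper-Pearson intervals, which cover counting error only. The members and gene lists were chosen with earlier results of these data known. Named were the 10 members, list genes and neighbours that were called, and the kininogens, kinin receptors and Ace; Cyp11a1, Lhcgr, Klk1b3, Klk1b4 and Klk1b5 were added afterwards, and 1 called list gene is not reported here. With 2 libraries against 2, the smallest p an exact two-sided permutation test allows is 0.3333.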

Additional observations from a re-analysis of the deposited data

Results flagged for a closer look

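For 3 members both HFD libraries lay below both ND libraries in Leydig-like cells and above them in another class. These differences between classes were not tested. The share of all genes that did so was not counted, so nothing is read from the number of members. The ratios here are of mean CPM, without the scaling of the fit. Klk1 was lower in HFD in Leydig-like cells and higher in HFD in 4 other classes. In each of these 4 classes edgeR called 0 members higher in HFD. In Sertoli-like cells Klk1 was at 17.2 and 12.9 CPM in HFD and 6.26 and 7.77 CPM in ND, a log2 ratio of 1.10 (1.098). Of its 25 UMIs there in HFD 1, 9 lay in 1 cell. The log2 ratio was 0.55 in round-spermatid-like cells, 0.32 (0.323) in the round-to-elongating cluster and 0.27 (0.272) in elongating-spermatid-like cells. Klk1b16 had a log2 ratio of 0.56 (0.558) in the round-to-elongating cluster, at 3.42 and 3.61 CPM in HFD and 2.24 and 2.53 CPM in ND. Klk1b26 had log2 ratios of 0.09 (0.091) in elongating-spermatid-like cells, where the fit gave 0.02 (SE 0.06), and 0.16 (0.156) in round-spermatid-like cells. In elongating-spermatid-like cells HFD 2 and ND 1 were at 134.6 and 134.5 CPM, so the diets were barely apart. Groups with under 20 UMIs of the gene over the 4 libraries were not looked at.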

How the results depend on the processing

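The 7 members called in Leydig-like cells were 7 without any 1 library (7 to 7), 3 with DESeq2, which gave an adjusted p to 3 members, 5 with DESeq2 on the genes edgeR tested (an alternative chosen after seeing the data), 8 with doublets kept, where Klk1b26 was called, and 6 at resolution 2 or with the unnamed cluster. Both DESeq2 settings called 0 members in round- and 0 in elongating-spermatid-like cells. Leaving out each library gave 0 to 2 in round-spermatid-like cells, 0 to 1 in elongating-spermatid-like cells and 5 to 7 in the whole testis. With the replicate block the counts were 7, 2, 1 and 6, and 9 for the list genes and neighbours; replicate numbers did not pair the libraries (correlation of deviations 0.0364 over the whole testis and -0.0336 in Leydig-like cells). The 12 list genes and neighbours called became 6 with DESeq2, 6 with DESeq2 on the genes edgeR tested, 20 with doublets kept, 6 clustered without kallikrein genes, 4 at resolution 2, 4 with the unnamed Leydig-marker cluster (added after seeing the data) and 9 to 13 without 1 library. Calls over all genes in Leydig-like cells ranged from 58 to 1495, against 482. The log2 ratio of the summed members in Leydig-like cells (-2.31) was -2.40 (-2.395) with doublets kept, -2.45 at resolution 2, -2.43 clustered without kallikrein genes, -2.12 as UMIs per cell, -2.42 (-2.425) with the unnamed cluster and -2.36 to -2.25 without 1 library. In round-spermatid-like cells (-0.02) it was 0.21 with doublets kept, 0.16 at a mitochondrial limit of 10%, 0.13 at resolution 2, 0.20 (0.195) clustered without kallikrein genes, 0.13 as UMIs per cell and -0.08 to 0.04 without 1 library. In elongating-spermatid-like cells (0.06) it was 0.17 as UMIs per cell and 0.02 to 0.09 without 1 library. Klk1b9 in Leydig-like cells (-0.32) turned to 0.11 with doublets kept and ranged from -0.73 to 0.02 (-0.733 to 0.023) without 1 library, the highest without HFD 1. Klk1b8 there (-1.64) was -0.77 with doublets kept and was not called at resolution 2, with the unnamed cluster or with DESeq2 on the genes edgeR tested. Klk1 there was not called with DESeq2 on the genes edgeR tested, and its fitted ratio (-4.66), which rests on 1 UMI in HFD and on the prior count, was -3.74 without HFD 1 and -7.30 without HFD 2. The cause of these changes was not tested. Small UMI counts limit Klk1, Klk1b9, Klk1b11 and Klk1b26 in Leydig-like cells.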
